A study of Populus trichocarpa with 18 samples.

Results

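Potri.009G012200.v4.1 is the poplar gene described here, a fasciclin-like arabinogalactan protein gene followed across normal and tension wood and 3 bands of developing xylem. It is 1 of the 11294 gene identifiers that have at least 1 count in either deposited table. The gene was chosen by name with its counts in these libraries, in both woods and all regions, already known, so its own levels and differences are given as a description, with replicate error and without a p-value. The files and the reference gene table pair no identifier with a name, so the family comes from the rule that chose the gene and could not be checked against an annotation.

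Fasciclin-like arabinogalactan proteins are cell surface glycoproteins that carry fasciclin domains, which are associated with adhesion, and regions rich in arabinogalactan sugar chains. Many carry a lipid anchor that holds them at the outer face of the plasma membrane. In trees, several members are abundant where fibres lay down secondary walls, and members of the family are known markers of tension wood, which broadleaf trees form along the upper face of leaning stems. In poplar, tension wood fibres commonly build a gelatinous inner wall layer made largely of cellulose.

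All libraries came from wild-type Populus trichocarpa, black cottonwood, grown from branch cuttings to an age of 5 to 12 months. Tension wood came from stems held bent for 21 days, and the labels do not say whether the normal wood came from upright trees. Laser capture cut bands from cross-sections 16 µm thick of debarked stems, and the bands named Region 1, Region 2 and Region 3 were kept from each wood, with about 1600000 µm2 of tissue pooled for a replicate. This gives 6 groups of 3 biological replicates, and the labels do not give the number of trees behind a replicate or the order of the regions from the cambium.

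The libraries were shallow and of unequal depth. Totals were 6254 to 20080 counts in normal wood and 8982 to 89358 in tension wood. A floor of 3 counts is therefore 480 CPM (counts-per-million, here always of all counts of the library) in the shallowest library and 33.6 CPM in the deepest. Each table holds 1 wood, so a difference in wood and one in preparation or counting cannot be told apart, and across the 4347 genes in both tables the Spearman correlation between a normal and a tension library was 0.057 to 0.146, against 0.581 to 0.631 between normal libraries and 0.658 to 0.900 between tension libraries. The kit tags the 3′ ends of transcripts, so a count does not grow with transcript length, and no lengths were used. In these bulk captures, fewer cells of a type and less RNA per cell cannot be told apart. All 5 secondary wall cellulose synthases of a list recalled from published gene models, enzymes that make the cellulose of thickened walls, were counted in both woods. The 2 recalled identifiers of WOX4, a regulator of the cambium, were in neither table, as were 5 of the 20 recalled fasciclin-like identifiers, which at this depth and without an annotation says nothing of the tissue.

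Potri.009G012200 was among the most abundant genes of tension wood. In Region 1 of tension wood it held 24536, 19439 and 21007 CPM in replicates 1 to 3, from 2172, 1737 and 1370 counts. In Region 2 it held 25959, 20741 and 18253 CPM, from 1016, 1171 and 719 counts. In Region 3, the shallowest band, it held 25134, 16366 and 18462 CPM, from 693, 147 and 216 counts. Tension libraries thus lay close together, with the highest 1.59-fold above the lowest although their totals differed 9.95-fold.

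In normal wood the gene was counted in every library but at a lower level. Region 1 had 3851, 1136 and 2129 CPM in replicates 1 to 3, from 52, 13 and 24 counts. Region 2 had 4333, 904 and 1885 CPM, from 87, 8 and 14 counts. Region 3 had 1219, 1119 and 959 CPM, from only 12, 9 and 6 counts. Replicate 1 stood well above the others in Regions 1 and 2 and only slightly above them in Region 3. With exact Poisson 95% intervals, which cover counting error only, replicate 1 of Region 2 ranged from 3470 to 5344 CPM and replicate 2 of that region from 390 to 1781 CPM.

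**Figure D1:**
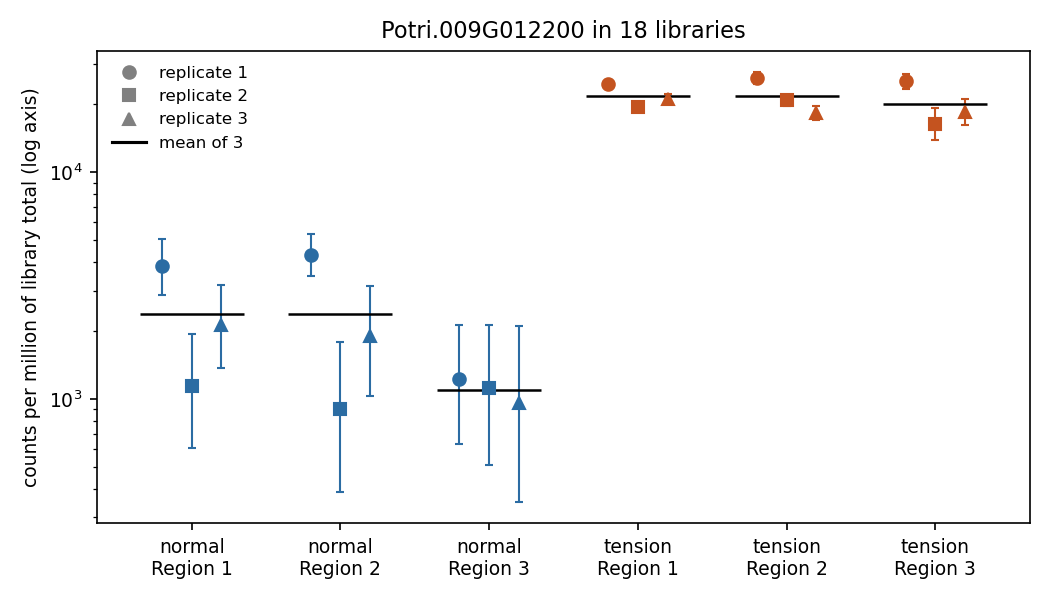
Level of Potri.009G012200 in each of the 18 libraries, as CPM of the library total on a log axis; bars are exact Poisson 95% intervals (counting error only), marker shapes are replicates and black lines are means of 3. All 9 tension libraries lie at or above 16366 CPM and all 9 normal libraries at or below 4333 CPM.

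The 9 tension libraries did not overlap the 9 normal libraries, and the lowest tension library was 3.78-fold above the highest normal one. The share of all genes that separate the woods in this way was not counted. By the edgeR test described below, 88.0% to 89.9% of genes tested in a region were called different between the woods, with limits given there. In Region 1 the means were 21661 ± 2611 CPM in tension and 2372 ± 1374 in normal wood (SD, n = 3), a 9.13-fold difference. In Region 2 they were 21651 ± 3933 and 2374 ± 1766 CPM (SD, n = 3), a 9.12-fold difference. In Region 3 they were 19987 ± 4579 and 1099 ± 131 CPM (SD, n = 3), an 18.2-fold difference. Normal replicate 1 moved these values most in Region 2, where the difference was 15.5-fold without it, against 13.3-fold in Region 1 and 19.2-fold in Region 3.

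Ordered by level, the 6 groups fell into 2 tiers set by wood. Regions 1 and 2 of tension wood differed by 9.78 CPM, and Region 3 of tension wood lay 1664 CPM below Region 2, both within the spread of replicates. The next step, from Region 3 of tension wood to Region 2 of normal wood, was 17613 CPM, or 3.59 times the combined SD of the 2 groups. Regions 2 and 1 of normal wood differed by 1.99 CPM, and Region 3 of normal wood lay 1273 CPM lower, which is 0.923 times the combined SD, with overlapping libraries. By this measure, which ignores the pairing of regions within a replicate, neighbours within a wood did not differ beyond their spread. Within replicates, Region 3 of normal wood was below Region 1 in 3 of 3, 1 of them nearly level, as given below.

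The place of the gene among all genes differed in the same way. In tension wood it had the most counts of any gene in 8 of 9 libraries. The exception was replicate 2 of Region 3, where it was second with 147 counts against 150 for Potri.010G012100.v4.1. Summed over tension wood it took 9241 of 426338 counts, or 2.17%, and was 1.54-fold above the next gene, Potri.006G136700.v4.1. In normal wood it took 225 of 96725 counts, or 0.233%, and stood at position 46 of 6763 genes. Its position varied between normal libraries, from 13 and 14 in replicate 1 of Regions 2 and 1 to 303 in replicate 2 of Region 2.

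The spread of the gene between replicates was wider than counting error in 5 of 6 groups. In normal wood the SD was 3.03 times the SD expected from counting alone in Region 1 and 3.24 times in Region 2, and 0.345 times in Region 3. In tension wood it was 4.99, 5.60 and 3.51 times in Regions 1 to 3. Replicate 1 had the highest CPM in 6 of 6 groups. The labels link replicate 1 of normal and of tension wood by number only, and do not say whether they share anything else.

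Relative to the summed counts of other listed members the gene was also higher in tension wood. Member by member this could not be settled at this depth. By the edgeR fit described below, 6 of 12 other tested members had a larger log2 fold change in Region 1. In Region 2, 4 of 10 did, and in Region 3, 0 of 6. The members with larger values held only 0 to 4 counts in each normal library of those regions. The limit given below for members that passed the filter only through tension wood applies to them. A list of 20 fasciclin-like identifiers recalled from published poplar gene models, this gene included, was used for comparison; membership was not checked against an annotation. Of these, 15 occur in either table and 14 in both. The share of the list's counts held by 1 member does not depend on how libraries are scaled to each other.

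In tension wood, Potri.009G012200 held 53.7%, 50.7% and 50.9% of the list's counts in replicates 1 to 3 of Region 1. Its shares were 52.9%, 50.5% and 43.6% in Region 2, and 52.0%, 48.7% and 47.3% in Region 3. It was thus the most counted member in all 9 tension libraries, with about as many counts as all the others together. In normal wood the shares were 41.9%, 17.1% and 24.5% in Region 1, then 39.9%, 8 of 57 counts and 20.9% in Region 2, and 12.9%, 15.8% and 16.7% in Region 3. Here it was the most counted member in 2 of 9 libraries, replicate 1 of Regions 1 and 2, which came close to the lowest tension library.

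Exact binomial 95% intervals show how much of this the depth can resolve. The share of 12.9% in replicate 1 of normal Region 3 has an interval from 6.85% to 21.5%, and that of 41.9% in the same replicate of Region 1 from 33.1% to 51.1%. The lowest tension share, 43.6%, has an interval from 41.2% to 46.0%, which overlaps those of the 2 high normal libraries. Group means were 51.8% ± 1.68, 49.0% ± 4.83 and 49.3% ± 2.45 in Regions 1 to 3 of tension wood (SD, n = 3). In normal wood they were 27.8% ± 12.8, 24.9% ± 13.4 and 15.1% ± 1.97 (SD, n = 3).

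**Figure D2:**
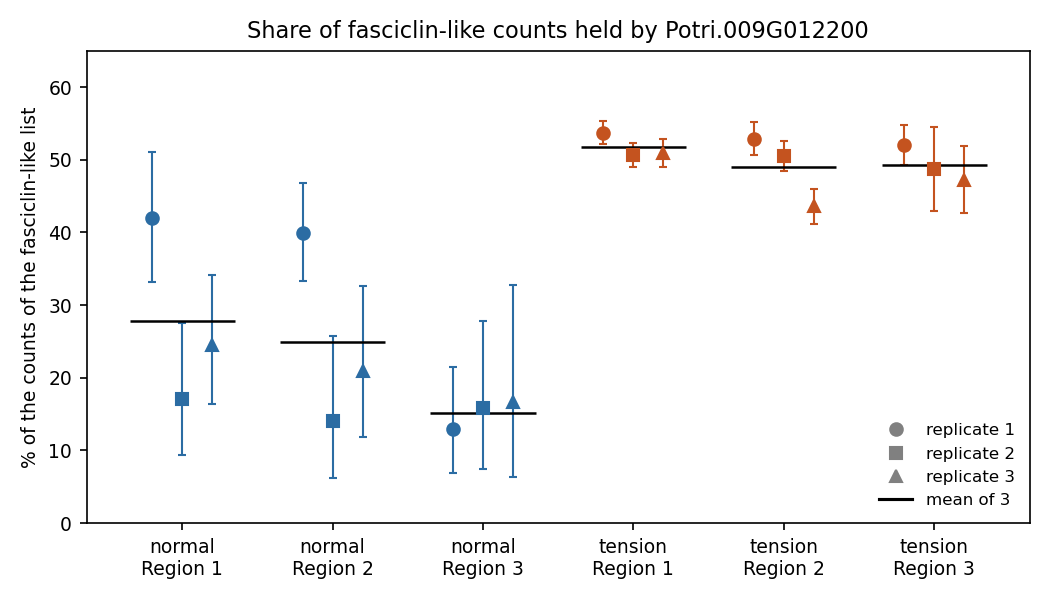
Share of the fasciclin-like list's counts held by Potri.009G012200 in each library, in percent; bars are exact binomial 95% intervals, marker shapes are replicates and black lines are means of 3. Tension libraries lie between 43.6% and 53.7%, and normal libraries between 12.9% and 41.9% with replicate 1 highest in Regions 1 and 2.

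The summed rest of the list was higher in tension wood as well, by a smaller factor. This sum is weighted by counts. Potri.019G123200.v4.1 and Potri.014G162900.v4.1 had the smallest fitted log2 fold changes of the list in Regions 1 and 2. They held 33.3% and 10.8% of the list's normal counts, against 8.86% and 1.25% in tension wood. Without Potri.009G012200, the list's counts summed to 20091 ± 1118 CPM in tension and 5800 ± 666 in normal wood in Region 1 (SD, n = 3), a 3.46-fold difference. The differences were 3.49-fold in Region 2 and 3.21-fold in Region 3. In the same regions Potri.009G012200 differed 9.13-fold, 9.12-fold and 18.2-fold. The lists of values do not overlap between the woods for either quantity, with 9 of 9 tension libraries above the highest normal library. How many other genes separate the woods in this way was not counted.

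Part of the normal wood signal of the family sat in another gene, Potri.019G123200.v4.1. It had more counts than Potri.009G012200 in 7 of 9 normal libraries and in 0 of 9 tension libraries. Over all normal libraries it held 33.3% of the list's counts against 27.2% for Potri.009G012200, and over tension libraries 8.86% against 50.9%. The ratio of Potri.009G012200 to Potri.019G123200 was 5.96 ± 0.297, 5.43 ± 0.923 and 5.34 ± 0.244 in Regions 1 to 3 of tension wood (SD, n = 3). In normal wood it was 0.885 ± 0.506, 0.926 ± 0.775 and 0.388 ± 0.151 (SD, n = 3), below every tension library.

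The gene with the adjacent identifier, Potri.009G012100.v4.1, also in the list, was far less counted. It had 10 to 130 counts in tension libraries and 2 to 26 in normal libraries. Potri.009G012200 had 9.10 to 16.7 times as many counts in tension wood. In normal wood the ratio was 1.14 to 4.33 in 8 libraries and 26.0 in replicate 1 of Region 1, which rests on 52 against 2 counts. Genes of similar sequence can share tags, and the sources used here do not say how such tags were counted.

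Set against the secondary wall cellulose synthases, the gene differed less clearly between the woods. Potri.009G012200 had 1.93 ± 0.343, 2.12 ± 0.504 and 1.85 ± 0.555 counts per count of the 5 cellulose synthases together in Regions 1 to 3 of tension wood (SD, n = 3). In normal wood the ratio was 0.963 ± 0.463, 1.85 ± 1.45 and 0.867 ± 0.551 (SD, n = 3). The woods overlapped in Regions 2 and 3 and not in Region 1. The cellulose synthases were themselves higher in tension wood. By the edgeR fit described below, their median log2 fold change was 3.15, 3.77 and 4.18 in Regions 1 to 3. These medians cover the 5, 4 and 2 members tested. The limit given below for list members that passed the filter only through tension wood applies here too. Normal libraries held as few as 6 counts of these enzymes, so single ratios there are coarse.

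A fit over all genes places these differences against the rest of the transcriptome. The quasi-likelihood F test of edgeR was run in each region on the genes found in both tables, with TMM scaling and Benjamini-Hochberg adjustment. By this fit the log2 fold change of Potri.009G012200, tension over normal, was 4.26 (SE 0.24) in Region 1, 3.77 (SE 0.49) in Region 2 and 4.58 (SE 0.37) in Region 3. The median over all genes tested was 1.37, 0.43 and -1.39 in these regions, so the gene lay 2.89, 3.34 and 5.97 above it. The SEs come from the fit. In CPM of library totals the combined log2 SD of the replicates was 0.90, 1.16 and 0.36 in Regions 1 to 3. With scaling by library totals the gene's fitted values were 3.24, 3.08 and 4.27, so the level depends on the scaling. The medians of all genes tested were then 0.35, -0.29 and -1.69, and the gene lay 2.89, 3.38 and 5.96 above them. The genes tested numbered 1037, 798 and 217, so these distances are not to be compared between regions.

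Most genes tested were called different between the woods, which sets how a count of family members can be read. By edgeR at an adjusted p under 0.05, 88.0% of genes tested were called in Region 1, 88.2% in Region 2 and 89.9% in Region 3, and 35.6%, 42.5% and 52.5% were called lower. These shares cover the 1037, 798 and 217 genes tested, of 4347 in both tables, and not the transcriptome. Any gene could pass the filter on low counts through 1 wood alone, which favours a call. On simulated data, false calls between the woods exceeded the threshold in Regions 1 and 3, most so in Region 3. In Region 1, 12 of the other 19 listed fasciclin-like identifiers had enough counts to be tested. Of these, 11 were called higher, where 52.5% of all 1037 genes tested were called higher. Their median log2 fold change was 4.20, or 4.04 when the 1 member absent from normal wood there is set to the bound from 3 counts over the group. In Region 2, 9 of 10 tested members were called higher, where 45.7% of 798 genes were, with a median of 3.61 on either reckoning. In Region 3, 5 of 6 were called higher, where 37.3% of 217 genes were, with a median of 2.78. A member that passed the filter on low counts only through tension wood had to differ, so these counts say nothing of the family as a whole. Only 3 of the 12 tested members in Region 1, 5 of 10 in Region 2 and 2 of 6 in Region 3 reached 10 counts in any normal library, and of those 2, 4 and 1 were called higher. This is not the filter itself, which asks for a level in 3 libraries. Members among these can therefore still have passed only through tension wood. The member called in Region 3, Potri.013G151500.v4.1, did so, with 11, 6 and 4 normal counts.

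Among the list, Potri.009G012200 stood out by its level, while its place by fold change could not be settled at this depth. In Region 1, 6 of the 12 other tested members had a larger log2 fold change, in Region 2, 4 of 10, and in Region 3, 0 of 6. The members with larger values held only 0 to 4 counts in each normal library of those regions. They passed the filter only through tension wood, so their fold changes rest near the floor. Members that reached 10 counts in a normal library of a region had smaller values there than Potri.009G012200. Differences between members were not tested. Potri.004G210600.v4.1 had 269, 244 and 164 counts in replicates 1 to 3 of tension Region 1 and 0, 0 and 2 in normal Region 1, so its fitted value of 6.63 (SE 0.54) rests on 2 counts in 1 normal library. In Region 3 it had 78, 19 and 30 against 2, 2 and 1 counts, with a fitted value of 3.96 (SE 0.48). It passed the filter in both regions only through tension wood, so these values are given without a test.

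Potri.013G151500.v4.1, with the next most counts of the list in tension wood, reached 10 counts in a normal library of every region. Its log2 fold changes were 3.52 (SE 0.32), 3.69 (SE 0.38) and 2.67 (SE 0.34) in Regions 1 to 3. The edgeR adjusted p was 6.8e-15 in Region 1 and 2.9e-10 in Region 2. Its normal counts in replicates 1 to 3 were 13, 3 and 5 in Region 2 and 11, 6 and 4 in Region 3. In Region 3 it passed the filter only through tension wood, so that value is given without a test. Potri.009G012100.v4.1 reached 10 counts in Region 2, with 26, 7 and 10 counts in normal wood. Its log2 fold change there was 1.53 (SE 0.35, edgeR adjusted p = 1.2e-04). In Regions 1 and 3, with 2 to 6 counts in normal libraries, its fitted values were 3.35 (SE 0.44) and 2.12 (SE 0.49). Potri.013G014200.v4.1 and Potri.019G121200.v4.1 had 4.01 (SE 0.38) and 3.97 (SE 0.43) in Region 1, where no normal library held more than 7 counts of either. These last 4 values carry the same limit as those of Potri.004G210600.v4.1.

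At the low end stood Potri.019G123200.v4.1, with log2 fold changes of 1.53 (SE 0.25), 1.45 (SE 0.31) and 0.59 (SE 0.35) in Regions 1 to 3. It passed the edgeR test in Regions 1 and 2 and not in Region 3 (adjusted p = 0.120). Scaled by library totals its values were 0.51 (SE 0.24, edgeR adjusted p = 0.041), 0.71 (SE 0.23, adjusted p = 0.0025) and 0.29 (SE 0.32, adjusted p = 0.393). Potri.014G162900.v4.1 had -0.11 (SE 0.40, edgeR adjusted p = 0.794) in Region 1 and 0.25 (SE 0.44, adjusted p = 0.586) in Region 2, and was not tested in Region 3. Scaled by library totals, Potri.014G162900.v4.1 was called lower in Region 1, at -1.11 (SE 0.41, edgeR adjusted p = 0.0092), and the other calls of the list in each region were equal in number and direction. The list's medians were then 3.21, 2.92 and 2.47 in Regions 1 to 3, against 0.35, -0.29 and -1.69 over all genes tested.

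**Figure D3:**
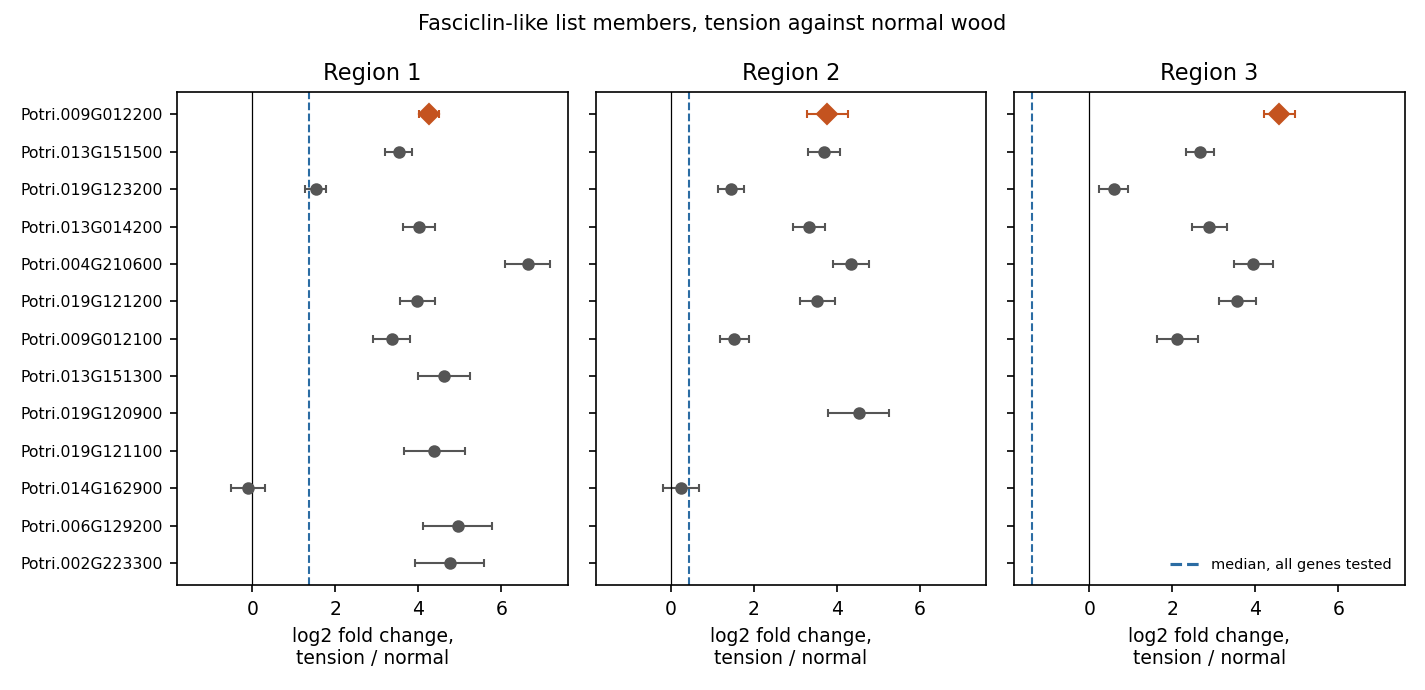
Log2 fold change, tension over normal wood, of the tested fasciclin-like list members in each region, from edgeR with TMM scaling; bars are 1 SE, the orange diamond is Potri.009G012200, the dashed line is the median of all genes tested, and genes are ordered by their counts in tension wood. Members at 0 counts in normal wood of a region are not drawn, and Potri.009G012200 lies at 4.26, 3.77 and 4.58.

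Across the regions of tension wood the gene was nearly level. Relative to Region 1 of the same replicate, Region 2 was 1.06-fold, 1.07-fold and 0.869-fold in replicates 1 to 3. Region 3 was 1.02-fold, 0.842-fold and 0.879-fold. No direction was shared by all 3 replicates. The edgeR fit with the replicate as a block gave log2 fold changes of 0.02 (SE 0.07) for Region 2 against Region 1, -0.12 (SE 0.08) for Region 3 against Region 2 and -0.10 (SE 0.07) for Region 3 against Region 1.

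The other fasciclin-like members were also not called between regions of tension wood. Of the 12 tested, 0 were called in each of the 3 comparisons by edgeR, where 0.171%, 0% and 0.342% of the 1171 genes tested were called for Region 2 against 1, Region 3 against 2 and Region 3 against 1 (0.0854% higher and 0.0854% lower in the first). At an unadjusted p under 0.05, 50, 56 and 78 of all genes passed, and DESeq2 called 0, 0 and 1 genes. The list's median log2 fold changes were 0.20, -0.13 and 0.10 in that order, against 0.01, -0.02 and -0.01 over all genes tested. As a share of the list, Potri.009G012200 was lower than in Region 1 in 3 of 3 replicates in both other bands, with mean log2 changes of -0.08 in Region 2 and -0.07 in Region 3. Between Regions 2 and 3 the replicates differed in direction.

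In normal wood the gene was lower in Region 3 than in Region 1 in 3 of 3 replicates. Region 3 was 0.316-fold, 0.985-fold and 0.451-fold of Region 1 in replicates 1 to 3, so replicates 1 and 3 were lower and replicate 2 was nearly level. Region 2 was 1.13-fold, 0.795-fold and 0.886-fold of Region 1. The blocked edgeR fit gave log2 fold changes of -0.07 (SE 0.39) for Region 2 against Region 1 and -1.08 (SE 0.45) for Region 3 against Region 1, and the latter was -0.53 without replicate 1. Region 3 was 0.281-fold, 1.24-fold and 0.509-fold of Region 2, so replicate 2 differed in direction.

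Region 3 of normal wood rests on 27 counts of the gene over 3 libraries, and Region 1 on 89. The rest of the list, without Potri.009G012200, was 1.54-fold, 1.08-fold and 0.731-fold of Region 1 in replicates 1 to 3 of Region 3. Potri.019G123200.v4.1, the only other list member with enough counts to be tested between regions of normal wood, had a log2 fold change of 0.19 (SE 0.35, edgeR adjusted p = 0.870) for Region 3 against Region 1, where 0.314% of 318 genes were called.

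**Figure D4:**
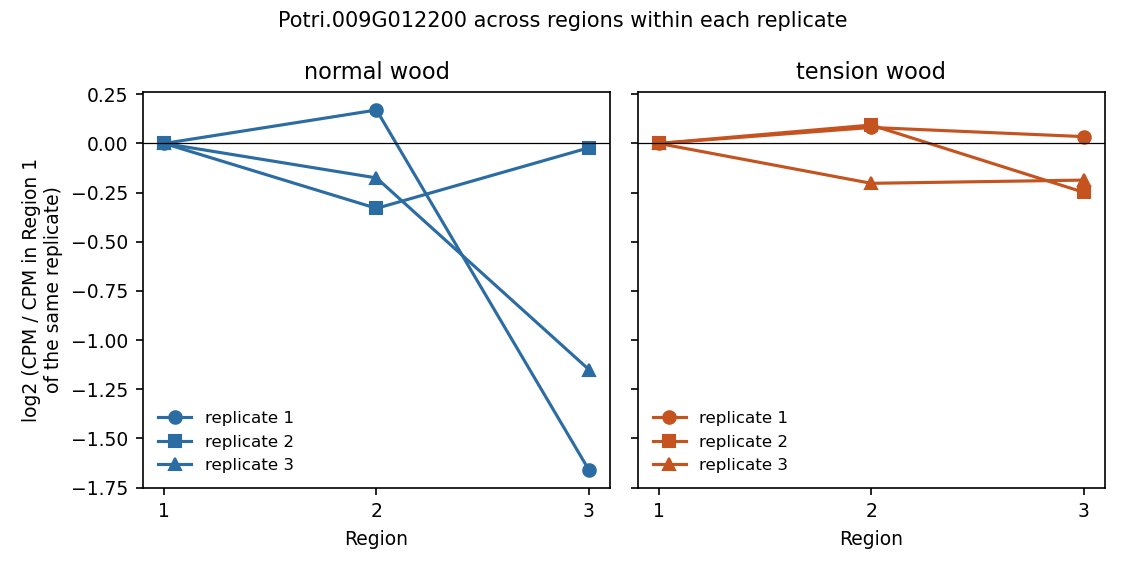
Level of Potri.009G012200 in Regions 2 and 3 relative to Region 1 of the same replicate, as log2 ratios of CPM, with 1 line per replicate and 1 panel per wood. Tension replicates stay within 0.25 of 0, whereas normal replicates 1 and 3 lie at -1.66 and -1.15 in Region 3 and replicate 2 at -0.02.

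Whether this region pattern differed between the woods depended on the scaling. In CPM of library totals the mean log2 change from Region 1 to Region 3 was -0.13 ± 0.15 in tension and -0.94 ± 0.84 in normal wood (SD, n = 3). In a fit of all 18 libraries by edgeR with TMM, the difference of these changes, tension minus normal, was -0.35 (SE 0.43), while the median of all 573 genes tested was -1.34. With library totals it was 1.02 (SE 0.33) against a median of -0.15. Relative to the median of all genes, the gene lay higher by 0.99 with TMM and by 1.17 with library totals. Of all genes tested, 8.55% were called for this difference with TMM, 49 lower and 0 higher, and with library totals 0 lower and 1 higher. Of the 10 other fasciclin-like members tested, 1 was called lower with TMM. For the change from Region 1 to Region 2 the gene differed from the median by -0.05 under both.

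The genes whose pattern was most like that of Potri.009G012200 were found by the mean absolute difference of centred log2(CPM + 50). Over all 18 libraries and 484 other genes with at least 200 counts, Potri.004G127400.v4.1 and Potri.005G021100.v4.1 were closest outside the lists, at 0.34 and 0.35 on the log2 scale, against a median of 1.12. Both were rare in normal wood. Potri.004G127400.v4.1 had 820 ± 212 CPM in Region 1 of tension wood and 49.4 ± 85.5 in Region 1 of normal wood (SD, n = 3), and Potri.005G021100.v4.1 had 804 ± 138 and 29.6 ± 51.2. The pseudocount of 50 CPM compresses the difference of such low genes, which rest on 349 and 374 counts in all. Of the fasciclin-like list, Potri.019G121100.v4.1 and Potri.013G151300.v4.1 were closest, at 0.40 and 0.43.

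Within the 9 tension libraries, where the gene varied only 1.59-fold, Potri.009G095800.v4.1 and Potri.016G066600.v4.1 were closest outside the lists, at 0.11 and 0.12, against a median of 0.31 over 345 genes. Potri.019G123200.v4.1 of the fasciclin-like list was as close, at 0.11, and Potri.009G012100.v4.1 stood at position 30. Potri.009G095800.v4.1 differed far less between the woods than Potri.009G012200, at 5134 ± 555 CPM in tension and 2848 ± 454 in normal wood of Region 1 (SD, n = 3). These 9 libraries share a table and fall in mean depth from Region 1 to Region 3, and the likeness is a description over few libraries.

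**Figure D5:**
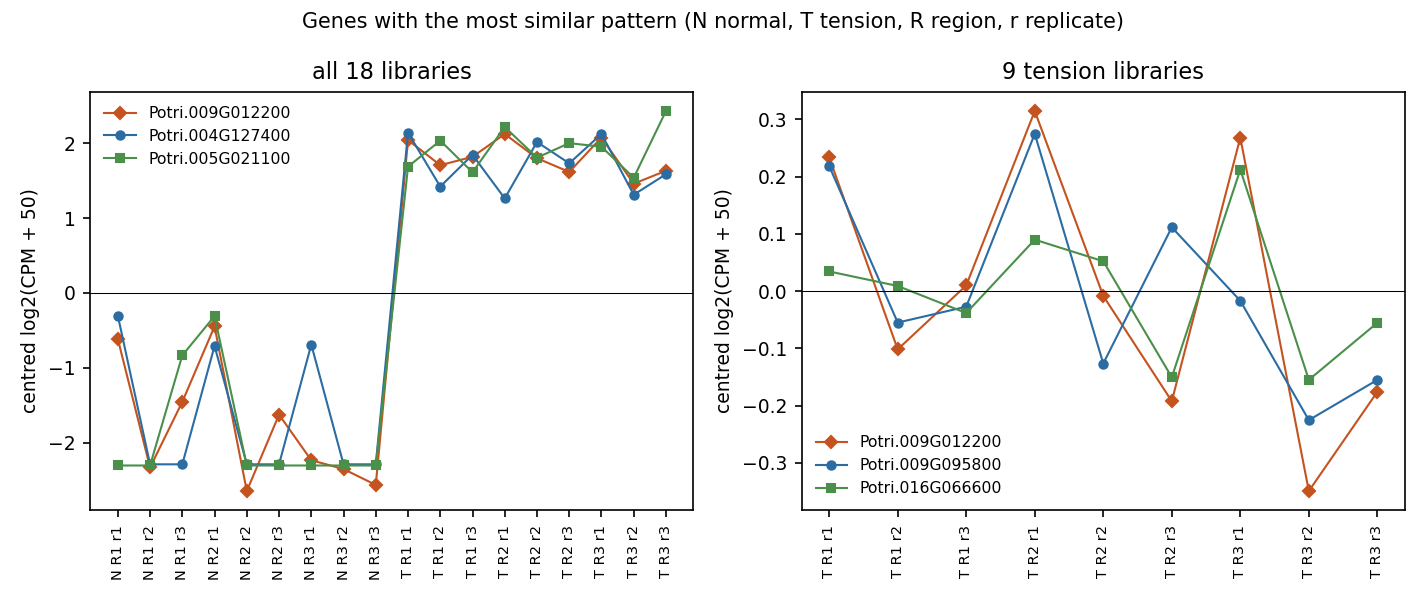
Centred log2(CPM + 50) of Potri.009G012200 and of the 2 genes outside the lists with the most similar pattern, over all 18 libraries (left) and over the 9 tension libraries (right); lines only join the points of a gene. On the left all 3 genes step up between the woods, and on the right they stay within 0.35 of their mean.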

How the data were processed

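The deposited tables hold counts, whole numbers for each gene in each library, with 1 table for each wood. The submitters' processing notes list UMI-tools, STAR and featureCounts. They give no versions, settings or genome build, and do not say whether reads or molecules were counted, so intervals cover counting error only. All 18 columns were matched to samples by their labels, leaving 0 unused. Genes absent from 1 table were set to 0 there, since the smallest row sum in either is 1. The reference gene table matched 0 of 11294 identifiers, so no name, coordinate or sequence is printed.

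Tests used edgeR 4.0.16 in R 4.3.3 (quasi-likelihood F, TMM, filterByExpr with a minimum count of 10, Benjamini-Hochberg adjusted p under 0.05), with the SE taken as the size of the log2 fold change divided by the square root of F. DESeq2 1.42.0 was an alternative. The woods were compared in each region over 6 libraries without a block. Regions were compared within a wood over 9 libraries with the replicate as a block, since the labels give each replicate 3 regions. Deviations of same-numbered libraries had a median correlation of 0.129 in normal wood and -0.056 in tension wood. The labels call the replicates biological without tying them to trees, so p-values measure the spread between these samples. On simulated data the fits found most of the genes changed between the woods or within tension wood. They found fewer of those whose region change differed between the woods. False calls between the woods exceeded the threshold in Regions 1 and 3, most so in Region 3. The simulated libraries of a comparison shared 1 mean profile and 1 dispersion, with a fixed number of genes changed, as many up as down. In the data most genes tested were called between the woods, so the simulation does not cover that case. By a rule, the genes named were the chosen gene, counted members of the fasciclin-like list and the 2 genes most like it over 18 and over 9 libraries. Potri.010G012100.v4.1 and Potri.006G136700.v4.1 were named after their values were seen. The gene and the lists were chosen with earlier results of these data known.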

Additional observations from a re-analysis of the deposited data

Results flagged for a closer look

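For Potri.019G123200.v4.1 of the fasciclin-like list, the change from Region 1 to Region 3 differed between the woods by edgeR over all 18 libraries. The log2 difference, tension minus normal, was -1.49 (SE 0.42, adjusted p = 0.019), close to the median of -1.34 over all 573 genes tested, of which 8.55% were called lower and 0% higher. With scaling by library totals it was -0.23 (SE 0.32, edgeR adjusted p = 0.855) against a median of -0.15.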

How the results depend on the processing

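Of 109 values of Potri.009G012200 under alternatives, 89 moved by less than the spread between replicates and 20 by more. This spread is that of single libraries, and leaving out 1 replicate tends to move a mean by less than it. Many values of Potri.009G012200 were thus likely to stay within it, and 89 is no measure of robustness. For its difference between the woods, 4, 0 and 6 values moved by more in Regions 1 to 3. The log2 spreads there were 0.90, 1.16 and 0.36, so the rule was loosest in Region 2. For the difference between the woods in its region change, 4 moved for Region 2 and 5 for Region 3. Its difference between the woods stayed positive in every alternative run in all 3 regions. In Region 1 its log2 fold change of 4.26 became 3.24 with library totals, 5.25 in a fit of all 18 libraries and 2.99 with every library thinned to 6254 counts, and ranged from 3.22 to 5.08 with 1 replicate left out. In Region 2, 3.77 became 4.65 with all 18 libraries and 2.65 thinned, and ranged from 3.10 to 4.79. In Region 3, 4.58 became 5.04 with all 18 libraries and 3.75 thinned, and ranged from 4.41 to 5.84. Genes called between the woods numbered 913, 704 and 195 in Regions 1 to 3. With a minimum count of 3 they numbered 1787, 1681 and 620, thinned they numbered 75, 82 and 92, and with all 18 libraries 488 in Region 1 and 503 in Region 3. With 1 replicate left out, Region 1 gave 405 (without tension replicate 1) to 1434 (without normal replicate 2).

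Between regions of normal wood the 1 gene called for Region 3 against Region 1 became 0 with library totals, DESeq2, a minimum count of 3 or no replicate block, and 0 to 1 with a replicate left out. In tension wood, DESeq2 called 0 rather than 2 for Region 2 against Region 1 and 1 rather than 4 for Region 3 against Region 1. Leaving out a replicate gave 0 to 1 and 0 to 5 for these, and 0 to 1 for Region 3 against Region 2. The chosen gene's value for tension Region 3 against Region 1, -0.10, ranged from -0.28 to -0.041.

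The difference between the woods in its region change depended on scaling and filter. From Region 1 to Region 2, -0.49 became -0.032 with library totals and 0.054 with a minimum count of 3, and ranged from -0.59 to 0.62 (the latter without normal replicate 1). From Region 1 to Region 3, -0.35 became 1.02 and 1.41, and ranged from -0.67 to 1.70 (the latter without normal replicate 2). The cause was not tested.

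The replicate block, added to the comparison of the woods, gave 4.39, 4.19 and 4.59 in Regions 1 to 3. The labels link the woods by replicate number only, and same-numbered libraries had median correlations of -0.117, 0.019 and -0.066. Without the block, the region values of the chosen gene moved by less than their spread. Normal libraries hold 6 to 87 counts of the gene, which limits every ratio against normal wood.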
